A study of Mus musculus with 17 samples.

Results

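The mitochondrial ribosome was followed through its protein genes, taken as every gene whose mouse symbol begins with Mrpl (large subunit) or Mrps (small subunit) followed by a digit. This gave 78 genes, 49 Mrpl and 29 Mrps, of the 16569 genes listed. Each gene was represented by its RefSeq messenger RNA entry, and the 5 genes with several entries (Mrpl1, Mrps10, Mrps2, Mrps33 and Mrps36) by the entry with the highest mean over all libraries. All 78 genes passed the expression filter of at least 1 RPKM (reads scaled by transcript length and library size) in at least 2 libraries.

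RNA from whole left ventricle (LV) and right ventricle (RV) tissue of untreated male C57Bl/6 mice was sequenced at birth (P0), at postnatal day 3 (P3) and at postnatal day 7 (P7). There were 3 libraries per group, and 2 for RV P7, which gave 17 libraries over 6 groups. By the labels, strain, sex and lack of treatment were common to every group, and chamber and age were the differences between groups. An entry that split the libraries within groups is described below. The labels call the libraries biological replicates and do not say which LV and RV libraries came from 1 animal.

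Mitochondria keep a small genome that encodes core subunits of the respiratory chain and of ATP synthase. The messenger RNAs of that genome are translated inside the organelle by its own ribosome, whose RNAs are mitochondrial but whose proteins are all encoded in the nucleus, made in the cytosol and imported. Heart muscle depends on this machinery for oxidative metabolism, and inherited defects of some of these proteins cause cardiomyopathy in people.

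Many of these genes share a start region with a neighbour on the opposite strand, and 5 start regions are shown here because the genes they belong to carry the contrasts described below. Sequences and positions are those of RefSeq on GRCm38.p6, printed 5′ to 3′ on the strand of the gene. The sequences of Mrps11, Mrps12 and Mrps27 are the whole stretch between the starts that the promoter table gives for the gene and its neighbour, and those of Mrps22 and Mrpl12 are the 250 bases before the start. Capitals mark matches to the ETS motif CCGGAAG (Mrps22) or its reverse complement (Mrps27) and to the CCAAT box (Mrps12). In Mrpl12 they mark the reverse complement of the NRF1 motif, which is GCGCA, any base, then GCGC. The Mrps11 stretch held none of the motifs searched. For Mrps27 the start in that table lies inside the gene interval given below, so its stretch runs a few bases into the interval.
Mrps22, chr9:98601680-98601929, minus strand: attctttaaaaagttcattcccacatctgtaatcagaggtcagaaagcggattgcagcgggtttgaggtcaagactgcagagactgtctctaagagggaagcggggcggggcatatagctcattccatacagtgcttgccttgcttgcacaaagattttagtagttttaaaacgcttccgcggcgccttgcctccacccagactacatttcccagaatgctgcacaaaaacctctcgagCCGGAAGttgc
Mrps27, chr13:99344679-99344785, plus strand: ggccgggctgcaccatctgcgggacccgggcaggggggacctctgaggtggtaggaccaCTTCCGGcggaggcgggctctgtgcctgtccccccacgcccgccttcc
Mrpl12, chr11:120484387-120484636, plus strand: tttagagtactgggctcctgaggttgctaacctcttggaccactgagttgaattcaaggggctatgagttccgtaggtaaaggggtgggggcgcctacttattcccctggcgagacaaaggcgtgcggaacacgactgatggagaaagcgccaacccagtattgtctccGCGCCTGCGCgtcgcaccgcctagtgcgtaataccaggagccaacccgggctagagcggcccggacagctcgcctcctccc
Mrps12, chr7:28741822-28741967, minus strand: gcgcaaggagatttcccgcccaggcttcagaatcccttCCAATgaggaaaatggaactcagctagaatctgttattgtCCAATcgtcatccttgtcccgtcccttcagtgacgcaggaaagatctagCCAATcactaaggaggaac
Mrps11, chr7:78783090-78783130, plus strand: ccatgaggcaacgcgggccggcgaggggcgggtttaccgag

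The libraries held 27561845 to 41061058 reads (median 36153964), as estimated from the steps between low values. The 4 Y-linked genes checked stood at 2.86 RPKM or more in every library, as the label male requires. One entry, NM_008710, divided the libraries within each P3 and P7 group, a split that followed neither chamber nor age alone. It stood at 0.128 to 0.205 RPKM in 7 libraries (replicates 2 and 3 of LV P3, LV P7 and RV P3, and replicate 2 of RV P7) and at 2.99 to 15.6 RPKM in the other 10, among them all P0 libraries. The split is thus partly confounded with the comparisons of P0 with later ages, and its cause was not tested. Counts of the family for the comparisons of ages are therefore also given without those 7 libraries, and those between chambers, for subunits and for other lists with all libraries only. Without them each P3 and P7 group holds 1 library, and its spread is assumed to be that of the P0 groups.

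The mitochondrial ribosomal protein genes were expressed at moderate to high levels. Averaged over the libraries, 60 of the 78 had a level of 10 to 100 RPKM, 9 were under 10 RPKM and 9 were over 100 RPKM. The median gene of the family stood at 39.4 RPKM, above 88.1% of the 10668 tested entries, whose median was 6.87 RPKM. Read counts behind a value were large, with a median over the libraries of 76 to 11097 reads per gene and a family median of 1563. The genes lay on 17 chromosomes, and 11 of them were on chromosome 11.

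The order of the levels was led by Mrpl42 with a mean of 384 RPKM, Mrpl12 with 341 RPKM, Mrps21 with 292 RPKM and Mrpl52 with 167 RPKM. Mrpl12 is the copy of the bacterial stalk protein that recruits translation factors, and it also binds mitochondrial RNA polymerase. The ranges of Mrpl42 (322 to 460 RPKM) and Mrpl12 (233 to 447 RPKM) overlapped widely, so their order was not beyond the spread of the libraries. These 4 genes together held 23.0% to 29.1% of the summed level of the family in every library. At the other end stood Mrps2 at 1.21 RPKM, Mrps10 at 2.55 RPKM, Mrpl1 at 4.60 RPKM and Mrpl17 at 4.89 RPKM. Mrps2, Mrps10 and Mrpl1 have several entries, and the rule by which reads common to 2 entries were assigned was not at hand, so their single entries are not totals of the genes.

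The summed level of the 78 genes was highest at birth in both ventricles. In the LV the sum was 4922, 5136 and 4567 RPKM at P0, 4214, 4297 and 4107 RPKM at P3, and 4187, 3869 and 3867 RPKM at P7. In the RV it was 5107, 5285 and 5027 RPKM at P0, 3979, 4164 and 4013 RPKM at P3, and 3743 and 4180 RPKM at P7. Every P3 and P7 library lay below every P0 library of its chamber, whereas P3 and P7 libraries overlapped. As mean ± SD the LV sum went from 4875 ± 287 RPKM (n = 3) to 3974 ± 184 RPKM (n = 3), and the RV sum from 5140 ± 132 RPKM (n = 3) to 3962 ± 309 RPKM (n = 2).

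The total RPKM of all listed entries moved the same way, from 398675 to 330042 in the LV and from 408856 to 326390 in the RV between P0 and P7. As a share of that total the family therefore held nearly the same part at each age, 1.22% ± 0.060, 1.18% ± 0.055 and 1.20% ± 0.035 in the LV at P0, P3 and P7 (SD, n = 3). In the RV the share was 1.26% ± 0.066 at P0, 1.17% ± 0.029 at P3 (SD, n = 3) and 1.21% ± 0.011 at P7 (SD, n = 2). The groups overlapped in share in the LV at all ages, and in the RV the P3 libraries (1.15% to 1.20%) lay below the P0 libraries (1.21% to 1.33%).

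**Figure D1:**
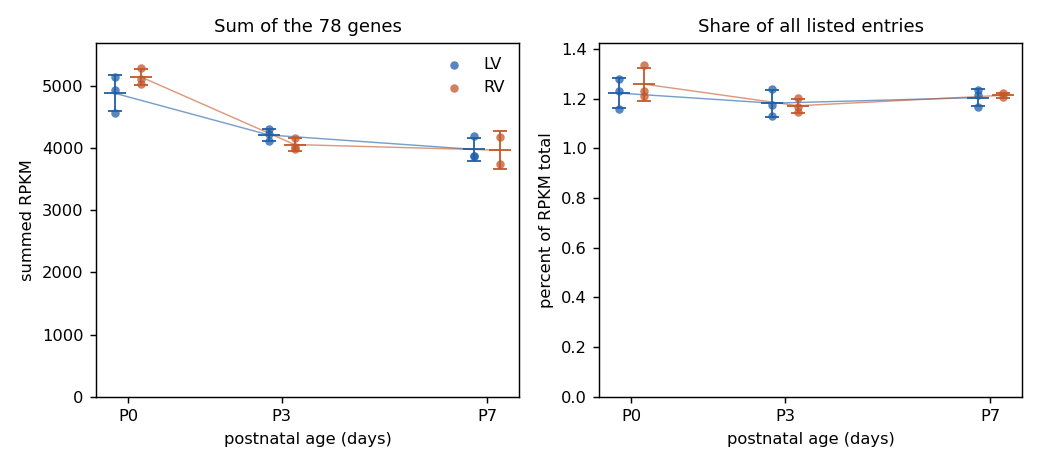
Left, summed RPKM of the 78 mitochondrial ribosomal protein genes in each library (points) by postnatal age, with the group mean and SD (bars) for LV (blue) and RV (orange), and right, the same sum as a percent of the RPKM of all listed entries. The sum lies between 4567 and 5285 RPKM in the 6 P0 libraries and between 3743 and 4297 RPKM in the 11 later ones, while the share stays between 1.13% and 1.33% throughout.

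Gene by gene, the question was which mitochondrial ribosomal protein genes differ between birth and the end of the first week. As deposited, 52 of the 78 genes were lower in LV P7 than in LV P0 and 0 were higher, whereas after scaling each library to its upper quartile 14 were lower and 9 were higher. Calls are those of limma on log2(RPKM + 1) at an adjusted p under 0.05, with Benjamini-Hochberg adjustment across every tested entry. In the LV, 53.0% of all tested entries were called lower and 11.8% higher, and the median log2 change was -0.32 for the family and -0.31 for all tested entries. The median LV change of the family was thus about that of the entries at large, whereas its share called lower was larger, with 0 called higher. The 1 RPKM added to each value understates changes of low entries more. The family stood at higher levels (medians 39.4 and 6.87 RPKM), so medians and shares are not compared at like levels, here or below.

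In the RV, 56 of the 78 genes were lower at P7 than at P0 and 0 were higher as deposited, and 15 were lower and 1 higher after upper-quartile scaling. Among all tested entries 46.1% were called lower and 9.81% higher, and the median log2 change was -0.44 for the family and -0.29 for all tested entries. The RV count without the libraries low in NM_008710 rests on RV P7 replicate 1 as its only P7 library. Leaving out only that replicate reduced the count of lower genes to 34. Without the 7 libraries low in NM_008710 it was 56 in the RV (33.9% of all tested entries) and 25 in the LV (28.2%).

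The scalings matter because most entries were lower at P7 on the deposited scale. Upper-quartile scaling moved the median of all tested entries from -0.31 to -0.07 in the LV and from -0.29 to -0.03 in the RV, and the split of calls with it, to 29.5% lower and 21.3% higher in the LV and to 21.3% lower and 19.1% higher in the RV. The family median moved to -0.03 in the LV and to -0.14 in the RV. Scaling to a common total gave 18 lower and 7 higher genes in the LV (30.1% and 19.8% of all tested entries) and 17 lower and 1 higher in the RV (19.1% and 18.9%). That total lay above every deposited total (310406 to 415566 RPKM). The 1 added to each value before taking logs therefore weighed less in this setting, which changes more than the scale. Quantile normalization gave 13 lower and 10 higher in the LV (28.0% and 23.2%) and 16 lower and 2 higher in the RV (22.3% and 19.6%). No gene of the family was called in opposite directions under different scalings.

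**Figure D2:**
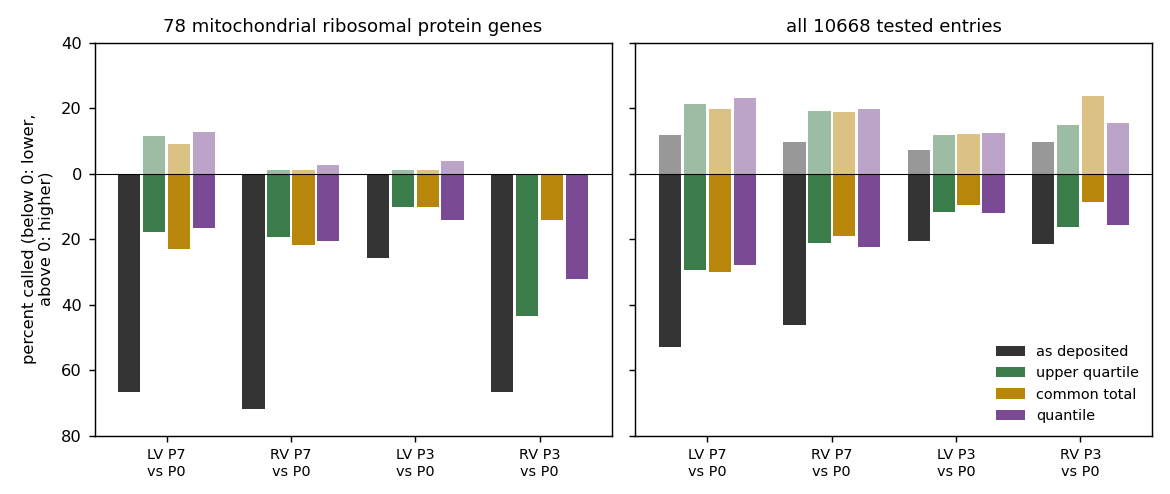
Percent of the 78 genes (left) and of all 10668 tested entries (right) called lower (bars below 0) or higher (bars above 0) in 4 comparisons, under the deposited scale and 3 scalings of the libraries. On the deposited scale the family reached 66.7% lower in the LV and 71.8% lower in the RV for P7 against P0, and under each of the scalings the lower share was at most 23.1% in those 2 comparisons.

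Because whole ventricle was sequenced, less RNA of a gene per cell and fewer cells that express it cannot be told apart. The summed level of 12 cardiomyocyte markers went from 37894 to 42053 RPKM in LV P0 libraries to 28563 to 30452 RPKM in LV P7 libraries. Over the same interval 10 endothelial markers went from 694 to 955 RPKM to 1955 to 2165 RPKM, and 8 markers of dividing cells from 301 to 354 RPKM to 113 to 123 RPKM. In the RV the same sums went from 35916 to 45932, 737 to 879 and 245 to 333 RPKM at P0 to 29240 to 32716, 1377 to 1877 and 117 to 117 RPKM at P7. Of the tested members of each list, 5 of 12 cardiomyocyte, 0 of 10 endothelial and 7 of 7 dividing-cell markers were called lower in the LV, and 3, 7 and 0 were called higher. In the RV the counts were 5, 1 and 7 lower and 3, 5 and 0 higher. Upper-quartile scaling turned the balance of the cardiomyocyte markers, to 2 lower and 4 higher in the LV and 2 lower and 5 higher in the RV, and gave 0 and 7 lower and 9 and 0 higher for the endothelial and dividing-cell markers in the LV. Fibroblast markers went from 711 to 935 RPKM to 1180 to 1294 RPKM in the LV, and atrial markers, whose genes ventricles also express around birth, from 982 to 1226 RPKM to 224 to 334 RPKM. On the deposited scale 4 of 8 tested fibroblast markers were called higher in the LV and 0 lower. The 5 tested atrial markers were split there, with 2 called higher and 3 lower. No marker of any list was at 0 in every library, and the part of these shifts in the change of the ribosomal genes was not tested.

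Single genes of the family spread around the median. Between P0 and P7, 45 genes were called lower in both chambers, 7 in the LV alone, 11 in the RV alone and 15 in neither (Mrpl10, Mrpl12, Mrpl14, Mrpl43, Mrpl44, Mrpl51, Mrpl55, Mrpl9, Mrps10, Mrps11, Mrps23, Mrps26, Mrps28, Mrps34 and Mrps36). Of all tested entries 41.4% were called lower in both chambers, 11.6% in the LV alone, 4.67% in the RV alone and 42.3% in neither. A call in 1 chamber and not in the other does not show that the chambers differ, and the test of that difference is given below. All P7 libraries lay below all P0 libraries for 56 genes in the LV and 62 in the RV, against 57.0% and 56.4% of all tested entries. P7 lay above P0 without overlap for 0 genes in either chamber (12.6% and 12.4% of all tested entries). Across the 78 genes the LV and RV changes went together (Pearson r = 0.75, across genes, which are not independent replicates, in libraries of the 2 chambers that pair by number).

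**Figure D3:**
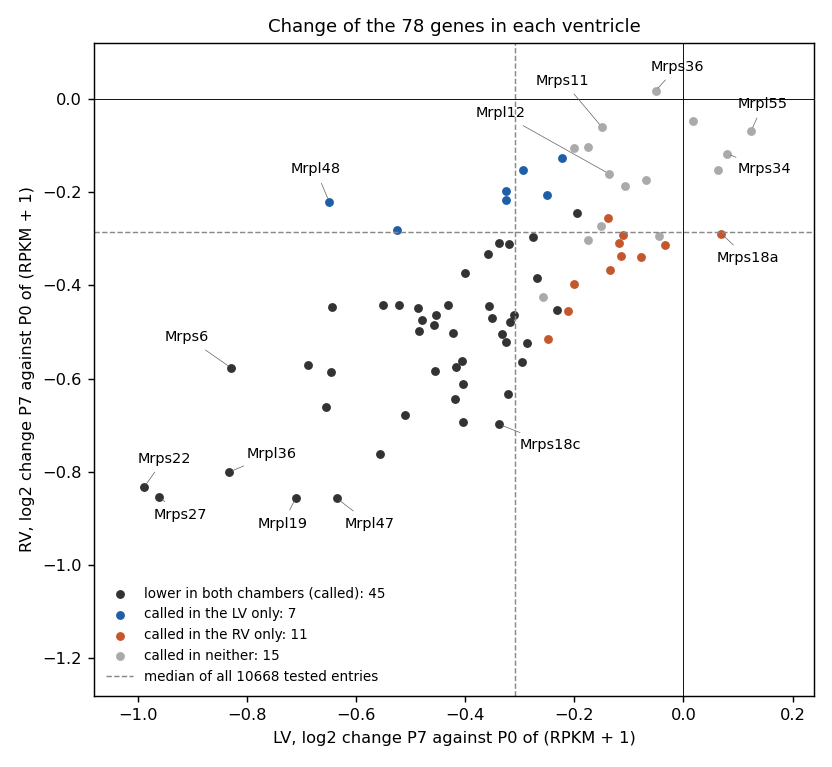
Log2 change of (RPKM + 1) from P0 to P7 in the LV (horizontal) and the RV (vertical) for each of the 78 genes, coloured by the chamber in which the gene was called, with dashed lines at the median of all tested entries. The 45 genes called in both chambers fill the lower left, where Mrps22 and Mrps27 reach -0.99 and -0.96 in the LV, and the 15 called in neither lie at the upper right, between -0.26 and 0.12 in the LV.

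Among the called genes, 6 were lower in both chambers under all 4 scalings, namely Mrps22, Mrps27, Mrpl36, Mrpl19, Mrpl38 and Mrpl47. This was 7.69% of the family, against 16% of all tested entries lower in both chambers under all 4 scalings. Mrps22 (chr9:98588730-98601679), a small subunit protein without a bacterial counterpart whose loss causes cardiomyopathy in infants, had the lowest LV change. Its LV level was 44.0, 43.5 and 41.9 RPKM at P0, 30.1, 31.4 and 31.7 RPKM at P3, and 22.6, 22.4 and 19.0 RPKM at P7. Its RV level was 42.2, 40.4 and 40.8 RPKM at P0, 26.3, 24.3 and 28.2 RPKM at P3, and 21.9 and 23.4 RPKM at P7. No library of 1 age overlapped with another age within a chamber. The log2 change from P0 to P7 was -0.99 (SE 0.083, adjusted p = 1.39e-08) in the LV and -0.83 (SE 0.093, adjusted p = 9.29e-07) in the RV.

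Mrps27 (chr13:99344767-99415562), a small subunit protein of the pentatricopeptide repeat family that binds RNA, followed the same course. Its LV level was 44.0, 45.7 and 42.6 RPKM at P0, 31.5, 30.3 and 29.8 RPKM at P3, and 22.8, 19.7 and 24.2 RPKM at P7. In the RV it was 45.0, 50.8 and 48.7 RPKM at P0, 28.9, 23.7 and 29.0 RPKM at P3, and 26.0 and 26.3 RPKM at P7. Ages did not overlap in the LV, whereas in the RV the P7 libraries lay between P3 libraries. The log2 change from P0 to P7 was -0.96 (SE 0.092, adjusted p = 7.37e-08) in the LV and -0.85 (SE 0.10, adjusted p = 2.17e-06) in the RV.

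Mrpl36 (chr13:73328503-73332178), the small zinc-binding protein of the large subunit, went from 58.5 ± 0.96 to 32.5 ± 4.09 RPKM in the LV (SD, n = 3) and from 58.8 ± 6.86 (n = 3) to 33.4 ± 4.91 RPKM (n = 2) in the RV. Mrpl19 (chr6:81957826-81965949), a conserved protein of the large subunit, went from 7.78 ± 0.51 to 4.36 ± 0.29 RPKM in the LV and from 8.39 ± 0.52 to 4.19 ± 0.30 RPKM in the RV. For neither gene did P0 and P7 libraries overlap. Mrpl47, a large subunit protein beside the exit of the peptide tunnel, had P0 levels of 37.9 to 46.9 RPKM and P7 levels of 22.8 to 27.7 RPKM over both chambers, and Mrpl38, of the central protuberance, had 35.6 to 47.5 and 23.5 to 27.5 RPKM. The log2 changes were -0.64 and -0.66 in the LV and -0.86 and -0.66 in the RV for Mrpl47 and Mrpl38. Mrps6, a conserved small subunit protein, changed by -0.83 in the LV (SE 0.10, adjusted p = 1.7e-06) and by -0.58 in the RV on the deposited scale. In the LV it was called under each scaling too, with changes of -0.52 to -0.58.

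**Figure D4:**
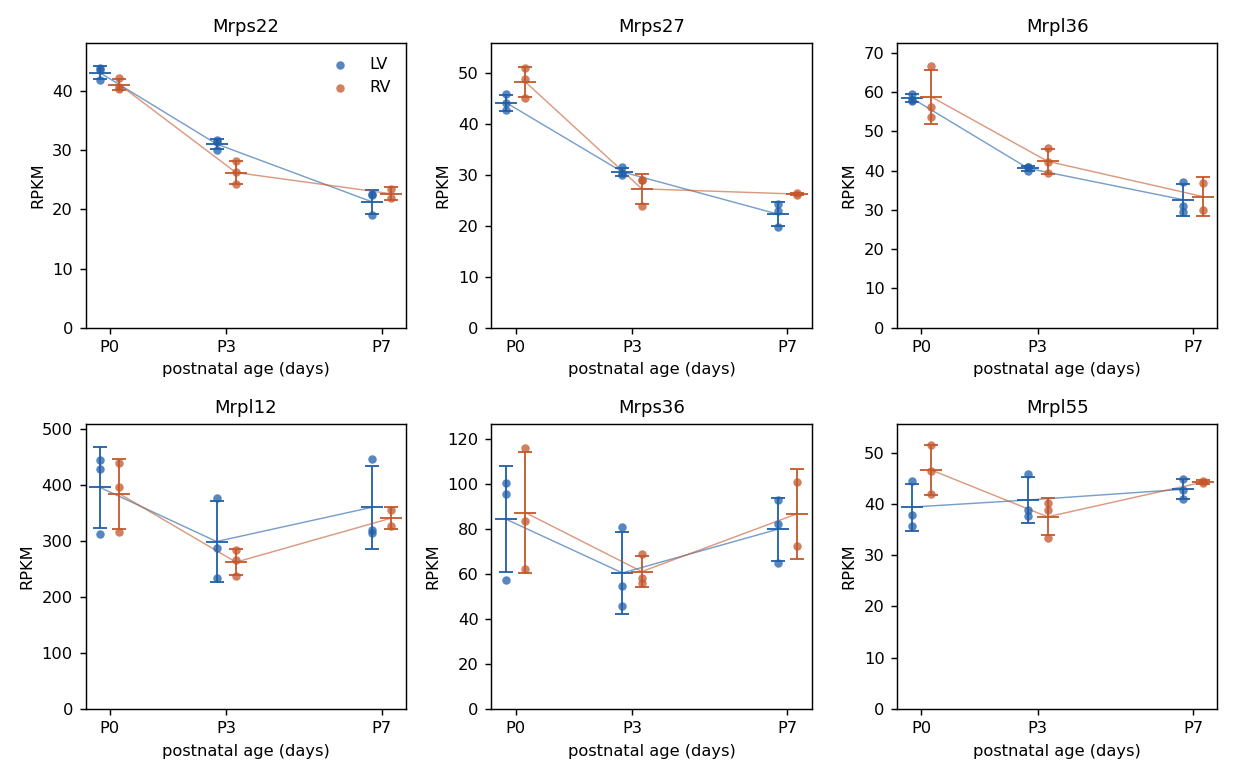
RPKM of 6 genes in each library (points) by postnatal age, with the group mean and SD (bars) in LV (blue) and RV (orange). Mrps22, Mrps27 and Mrpl36 step down at each age in the LV, Mrpl12 and Mrps36 have their lowest mean at P3 in both chambers, and Mrpl55 has overlapping P0 and P7 libraries in both chambers.

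At the other end of the range, no gene was called higher at P7 on the deposited scale. The highest LV changes were those of Mrpl55 (0.12, SE 0.10, adjusted p = 0.299), Mrps34 (0.08), Mrps18a (0.07) and Mrpl14 (0.06). Mrpl55, a large subunit protein, stood at 37.8, 44.5 and 35.8 RPKM in LV P0 and at 42.7, 40.9 and 44.9 RPKM in LV P7, which overlap. Called higher in LV P7 by each of upper-quartile scaling, scaling to a common total and quantile normalization were 7 genes (19.6% of all tested entries), namely Mrpl10, Mrpl14, Mrpl2, Mrpl20, Mrpl55, Mrps18a and Mrps34. In the RV the highest changes were those of Mrps36 (0.02), Mrpl10 (-0.05), Mrps11 (-0.06) and Mrpl55 (-0.07), and Mrps11 was called higher under those 3 scalings (18.1% of all tested entries).

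Of the 4 most abundant genes none was called in both chambers. Mrpl42, a mitochondrion-specific protein, stood at 377, 460 and 400 RPKM in LV P0 and at 322, 366 and 371 RPKM in LV P7. Its log2 change was -0.22 in the LV (adjusted p = 0.0365), with the sign turning under the 3 scalings, and -0.13 in the RV (adjusted p = 0.285). Mrpl12 changed by -0.14 in the LV (SE 0.17, adjusted p = 0.491) and by -0.16 in the RV (SE 0.19, adjusted p = 0.488). Mrps21 and Mrpl52 changed by -0.20 and -0.25 in the LV and by -0.40 and -0.52 in the RV, where both were called on the deposited scale and neither after scaling. Across the 78 genes the log2 mean level and the change were nearly unrelated (r = 0.16 in the LV and r = 0.12 in the RV, across genes).

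Of the least abundant genes, Mrps2 was lower at P7 in both chambers on the deposited scale. Its entry stood at 1.46, 1.47 and 1.71 RPKM in LV P0 and at 0.744, 0.999 and 0.978 RPKM in LV P7, without overlap, on 54 to 140 reads per library. The log2 change of (RPKM + 1), which understates changes at such low levels, was -0.42 in the LV (adjusted p = 0.00213) and -0.64 in the RV (adjusted p = 0.000194), and the RV call held under all 4 scalings. Mrpl1 changed by -0.27 and -0.38, Mrps10 by -0.26 and -0.43, and Mrpl17 by -0.12 and -0.31 in the LV and the RV. Of these, Mrpl1 was called in both chambers, Mrpl17 in the RV alone and Mrps10 in neither.

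The large and small subunit had similar shares of lower genes on the deposited scale. Counts by subunit, homology and place in the ribosome are given on that scale only. They are to be read beside the shares of all tested entries called lower, given above. With Mrps30 and Mrps18a counted in the large subunit, where their proteins sit despite their names, 34 of 51 large subunit genes were lower in LV P7 and 37 of 51 in RV P7 on the deposited scale. Without those and Mrps36, 18 of 26 small subunit genes were lower in the LV and 19 of 26 in the RV. The median log2 changes were -0.32 and -0.34 in the LV and -0.38 and -0.45 in the RV for the large and the small subunit. The sum of the Mrpl genes went from 3312 ± 191 to 2708 ± 138 RPKM in the LV (SD, n = 3) and that of the Mrps genes from 1563 ± 97.4 to 1266 ± 47.7 RPKM. Genes listed as having a bacterial homologue, a list that holds Mrpl55, whose homology is doubtful, were lower in 33 of 48 cases in the LV and 37 of 48 in the RV, and the other genes in 19 of 30 in each chamber.

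Within the large subunit, the stalk, which recruits translation factors, had 3 of 6 genes lower in the LV and 4 of 6 in the RV. Its LV share was near that of all tested entries, and each of these groups holds few genes. The central protuberance, which contacts transfer RNAs and the small subunit, had 5 of 8 and 6 of 8 lower. Of the 7 genes at the exit of the peptide tunnel, among them the membrane anchor Mrpl45, 5 were lower in each chamber. Mrpl45 went from 36.5 ± 1.35 to 25.8 ± 1.69 RPKM in the LV (SD, n = 3, log2 change -0.49, adjusted p = 4.6e-05) and changed by -0.45 in the RV (adjusted p = 0.000461).

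Genes with a known role in disease or outside the ribosome were followed by name. Of Mrpl3 and Mrpl44, which like Mrps22 are linked to inherited cardiomyopathy, only Mrpl3 was called on the deposited scale. The difference between them was not tested. Mrpl3 stood at 52.6, 58.2 and 49.9 RPKM in LV P0 and at 40.7, 39.1 and 40.4 RPKM in LV P7, with a log2 change of -0.41 in the LV (adjusted p = 0.000304) and -0.56 in the RV (adjusted p = 6.06e-05). Mrpl44 stood at 20.3, 20.3 and 21.9 RPKM in LV P0 and at 18.3 ± 1.30 RPKM (SD, n = 3) in LV P7, with every P7 library lower, with changes of -0.18 (adjusted p = 0.188) and -0.30 (adjusted p = 0.0524). Mrps30 changed by -0.51 and -0.68 (adjusted p = 0.000235 and 6.86e-05), and Mrps18a by 0.07 and -0.29 (adjusted p = 0.567 and 0.0413). Mrps12, the copy of the bacterial decoding-centre protein, changed by -0.11 in the LV (adjusted p = 0.334) and -0.34 in the RV (adjusted p = 0.0177). None of these calls except that of Mrps30 in the RV held under all 4 scalings.

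At P3 the family was already lower than at birth in the RV for most genes on the deposited scale, though not under every scaling. Between P0 and P3, 20 of 78 genes were lower in the LV (20.6% of all tested entries) and 52 of 78 in the RV (21.5%), with 0 higher in either chamber (7.26% and 9.72%), on the deposited scale. Upper-quartile scaling gave 8 lower and 1 higher in the LV (11.6% and 11.9%) and 34 lower and 0 higher in the RV (16.2% and 14.9% of all tested entries), scaling to a common total 8, 1, 11 and 0 (9.52%, 12%, 8.63% and 23.8%), and quantile normalization 11, 3, 25 and 0 (12.1%, 12.6%, 15.6% and 15.4%). The median log2 change was -0.18 for the family and -0.13 for all tested entries in the LV, and -0.33 against -0.09 in the RV. Without the 7 libraries low in NM_008710, 4 genes were lower in the LV (2.52% of all tested entries) and 17 in the RV (6.20%).

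The genes with the lowest change at P3 were Mrpl19 (-0.54, SE 0.098, adjusted p = 0.000502) and Mrps27 (-0.52, SE 0.092, adjusted p = 0.000399) in the LV, and Mrps27 (-0.81, adjusted p = 2.29e-06) and Mrpl19 (-0.66, adjusted p = 4.41e-05) in the RV. Mrpl48, of the central protuberance, had the highest change in both chambers, 0.15 in the LV (adjusted p = 0.523) and 0.01 in the RV (adjusted p = 0.97), followed by Mrpl14 with 0.13 and -0.05. Lower under all 4 scalings at P3 were 7 genes in the LV and 11 in the RV (9.21% and 8.38% of all tested entries), of which Mrpl19, Mrpl54, Mrps22 and Mrps27 appear in both.

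Between P3 and P7, 19 of 78 genes were lower and 1 higher in the LV (27.9% and 6.56% of all tested entries), and 5 were lower and 0 higher in the RV (14.8% and 2.50%). Upper-quartile scaling gave 4 lower and 2 higher in the LV (15.3% and 11.6%) and 0 lower and 6 higher in the RV (4.21% and 6.44%). The family had median log2 changes of -0.14 (LV) and -0.11 (RV), against -0.17 and -0.19 for all tested entries. These steps share the P3 libraries with the earlier ones, as the P3 and P7 comparisons share the P0 libraries, so their values are set side by side only. Mrpl48 had the lowest LV change (-0.80, SE 0.17, adjusted p = 0.00176), from 8.23, 5.56 and 5.77 RPKM at P3 to 3.25, 2.71 and 3.89 RPKM at P7, on 87 to 299 reads per library. Mrps22 followed with -0.53 (adjusted p = 0.000186), and Mrpl48, Mrpl49, Mrps22 and Mrps27 were lower under all 4 scalings (13.3% of all tested entries). In the RV the lowest were Mrps18c (-0.44, adjusted p = 0.0281) and Mrpl36 (-0.34, adjusted p = 0.0472), and 0 were lower under all 4 scalings (4.12%). Counts between P3 and P7 depended on single libraries, with 10 to 12 lower in the LV without LV P3 replicate 1, LV P3 replicate 3, LV P7 replicate 2 or LV P7 replicate 3, and 0 or 1 lower in the RV without any 1 RV P3 library or RV P7 replicate 1. Without the 7 libraries low in NM_008710 the count was 0 in each chamber (limma, 3.82% of all tested entries in the LV and 0.422% in the RV).

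The gene called higher between P3 and P7 was Mrps34, a mitochondrion-specific small subunit protein, in the LV. It stood at 5.85, 6.57 and 5.79 RPKM at P0, 5.10, 4.22 and 4.85 RPKM at P3, and 6.47, 6.76 and 6.17 RPKM at P7 in the LV. All P3 libraries lay below all P0 and all P7 libraries. The log2 change was -0.31 (SE 0.12, adjusted p = 0.0697) from P0 to P3 and 0.39 (SE 0.12, adjusted p = 0.0215) from P3 to P7, and the second was called under all 4 scalings. Leaving out LV P3 replicate 2 or LV P7 replicate 2 ended that call (adjusted p = 0.0607 and 0.0714), as did leaving out the libraries low in NM_008710. In the RV the P3 libraries of Mrps34 (3.91, 6.05 and 5.75 RPKM) reached into the P7 range (6.31 and 5.81 RPKM).

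Mrps34 was 1 of 10 genes whose mean was lowest at P3 in both chambers, with Mrpl10, Mrpl12, Mrpl20, Mrpl39, Mrpl43, Mrpl53, Mrps10, Mrps18a and Mrps36, against 5.02% of all tested entries. The pattern held for 7 of them under upper-quartile and common-total scaling too (2.79% of all tested entries), namely Mrpl12, Mrpl20, Mrpl39, Mrpl43, Mrps10, Mrps34 and Mrps36. Summed erythroid markers were also lowest at P3, at 527 to 537 RPKM in LV and 418 to 610 RPKM in RV libraries. At P0 and P7 that sum was 1438 to 2409 RPKM in the LV and 1114 to 2922 RPKM in the RV. No other marker list had all P3 libraries lowest in both chambers. The part of this shift in the pattern was not tested. Mrpl12 stood at 446, 430 and 313 RPKM at P0, 233, 377 and 287 RPKM at P3 and 447, 321 and 314 RPKM at P7 in the LV, and at 398, 440 and 316, then 266, 283 and 238, then 327 and 355 RPKM in the RV. The ages overlapped in the LV, and in the RV all P3 libraries lay below all others. Its log2 change from P0 to P3 was -0.41 in the LV (adjusted p = 0.0787) and -0.54 in the RV (adjusted p = 0.0212), and from P3 to P7 0.28 (adjusted p = 0.214) and 0.38 (adjusted p = 0.155).

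Mrps36 carries a small subunit name but its protein is now known as a member of the oxoglutarate dehydrogenase complex of the citric acid cycle. Its level was 95.4, 100.3 and 57.0 RPKM at P0, 45.7, 80.8 and 54.6 RPKM at P3 and 92.6, 81.9 and 64.6 RPKM at P7 in the LV, with wide spread within each age. It had the highest change from P3 to P7 in both chambers, 0.42 in the LV (SE 0.23, adjusted p = 0.161) and 0.49 in the RV (SE 0.26, adjusted p = 0.175), neither called. From P0 to P7 it changed by -0.05 and 0.02.

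With LV and RV libraries left unpaired, no gene of the family was called between the ventricles at any age. The limma test of RV against LV called 0 of 78 genes at P0 (0.0562% of all tested entries higher and 0.0844% lower), 0 at P3 (0.600% and 0.225%), 0 at P7 (0.0750% and 0.0844%) and 0 averaged over the ages (0.797% and 0.816%). At an unadjusted p under 0.05 there were 6, 6, 2 and 4 genes, against 7.05%, 10.8%, 7% and 14.8% of all tested entries. Upper-quartile scaling also called 0 at P0 (0.103% and 0.0844%), P3 (1.03% and 0.506%), P7 (0.131% and 0.0656%) and over the ages (1.67% and 0.966%). The median log2 differences, RV minus LV, were 0.07 at P0, -0.08 at P3, -0.02 at P7 and 0.01 over the ages. At P0 the highest were Mrps16 (0.30, adjusted p = 0.608) and Mrpl52 (0.28) and the lowest Mrpl39 (-0.13) and Mrpl50 (-0.13), and at P7 Mrpl48 (0.30) and Mrps18b (0.27) and Mrps18c (-0.31) and Mrpl20 (-0.17).

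With LV and RV libraries of the same age and number paired, 1 gene passed, Mrps35, a small subunit protein without a bacterial counterpart. At P3 it stood at 54.4, 55.4 and 54.5 RPKM in the LV and at 43.2, 44.5 and 44.0 RPKM in the RV. The RV libraries were all lower. The log2 difference was -0.31, with an adjusted p of 0.110 in the unpaired fit and of 0.0252 in the paired fit (2.93% of all tested entries lower), and averaged over the ages it was -0.16 (adjusted p = 0.149) and -0.18 in the paired fit (adjusted p = 0.0329, 5.63% lower). At P0 and P7 the levels of the chambers overlapped within their SD, at 62.2 ± 3.93 and 60.5 ± 6.20 RPKM at P0 (n = 3 each) and at 46.2 ± 5.05 (n = 3) and 42.3 ± 1.61 RPKM (n = 2) at P7.

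The change with age was not shown to differ between the chambers for any gene. The test of the difference, RV change minus LV change, called 0 of 78 genes for P7 against P0 (0.0187% of all tested entries in each direction), 0 for P3 against P0 (0% in each direction) and 0 for P7 against P3 (0% in each direction). At an unadjusted p under 0.05 there were 2, 8 and 4 genes (4.84%, 5.01% and 4.87% of all tested entries), and the paired fit also called 0. For P3 against P0 the difference was below 0 for 70 of 78 genes with a median of -0.15, against 41.7% and 0.03 for all tested entries. Under upper-quartile scaling, common total and quantile normalization 74, 56 and 66 genes were below 0 (51.4%, 27.9% and 49.4% of all tested entries). The family medians were then -0.19, -0.07 and -0.15, against -0.006, 0.11 and 0.002 for all tested entries. On the deposited scale the difference was lowest for Mrpl33 (-0.37, adjusted p = 0.844) and Mrpl55 (-0.36, adjusted p = 0.904). For P7 against P0 it was lowest for Mrps18c (-0.36) and Mrps18a (-0.36) and highest for Mrpl48 (0.43) and Mrps6 (0.25). For P7 against P3 it was highest for Mrpl48 (0.57) and Mrps27 (0.40, adjusted p = 0.984), and lowest for Mrpl52 (-0.24) and Mrps28 (-0.20).

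Other genes of mitochondrial translation were described from lists. The counts of these and the following lists are to be read beside the shares of all tested entries given above for P7 against P0. Of 5 mitochondrial ribosomal proteins with other names, 4 were lower at P7 in each chamber, among them Gadd45gip1 with a log2 change of -0.75 in the LV and -0.78 in the RV and Ptcd3 with -0.61 and -0.48. A list of aminoacyl-tRNA synthetases of mitochondria, which load transfer RNAs, also held Qrsl1, which is not itself a synthetase. Of its 19 tested genes, 18 were lower in the LV, and 16 in RV tissue, at medians of -0.67 and -0.46. Ears2, for glutamate, went from 21.3 ± 1.92 to 4.69 ± 0.81 RPKM in the LV (SD, n = 3, log2 change -1.98, adjusted p = 8.88e-11), and Gars, for glycine in cytosol and mitochondria, changed by -1.18, while Fars2 (-0.33) and Qrsl1 (-0.18) had the highest values. After upper-quartile scaling 13 and 7 genes of this list were lower and 0 were higher.

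Translation factors were lower in 10 of 14 cases in the LV and 7 of 14 in the RV, with medians of -0.40 and -0.31. Their lowest values in the LV were those of the transfer RNA modifier Mto1 (-0.80) and the release factor Mtrf1l (-0.54), and their highest those of Gtpbp3 (0.02) and Taco1 (-0.06). Factors of ribosome assembly and ribosomal RNA modification were lower in 15 of 27 cases in the LV and 16 of 27 in the RV, with C1qbp (-0.81) and the ribosomal RNA methyltransferase Tfb1m (-0.77) lowest and Grsf1 (0.02) and Rbfa (-0.05) highest. Genes of mitochondrial transcription and RNA handling were lower in 16 and 13 of 20 cases, with the DNA helicase Twnk (-1.06) and Fastkd1 (-0.88) lowest and Mterf2 (0.11) and Tfb2m (0.03) highest. On the deposited scale, translation factors in the RV and assembly factors in the LV had shares of lower genes near those of all tested entries. After upper-quartile scaling these 3 lists had 2, 3 and 8 genes lower and 0, 0 and 2 higher in the LV. For translation and assembly factors the lower share was then smaller than that of all tested entries. Of 9 tested regulators of mitochondrial biogenesis, 5 were lower and 1 higher in the LV, shares near those of all tested entries. There Perm1 changed by 0.77, Esrra by -0.19, Ppargc1a by -0.55 and Pprc1 by -0.66.

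The products of mitochondrial translation work beside nuclear-encoded subunits of complexes I, III, IV and V. Of 79 tested subunits, 14 were higher and 9 lower in LV P7 (median 0.01) and 2 were higher and 24 lower in RV P7 (median -0.11), and upper-quartile scaling gave 38 higher and 3 lower in the LV and 22 higher and 4 lower in the RV. Cox8b (0.91) and Cox4i2 (0.83) were highest and Cox6a1 (-1.18) and Atp5md (-1.12) lowest in the LV. Complex II, which has no mitochondrially encoded subunit, was lower in 3 of 4 genes in the LV (Sdhd -0.30, Sdhc -0.25, Sdhb -0.23 and Sdha 0.02) and in 2 of 4 in the RV. Cytosolic ribosomal proteins were lower in 64 of 72 cases in the LV and 67 of 72 in the RV, with medians of -0.64 and -0.78, and in 40 and 54 after upper-quartile scaling. Their lowest LV values were those of Rpl35a (-1.15) and Rps24 (-1.11), and the highest those of the striated muscle form Rpl3l (2.59) and Rpl34 (-0.07).

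**Figure D5:**
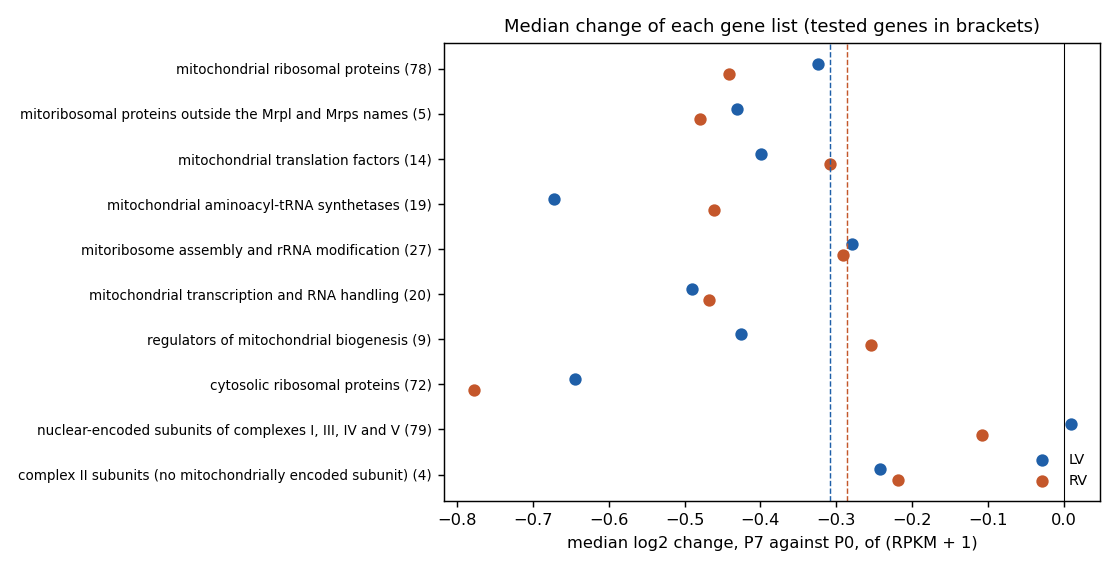
Median log2 change of (RPKM + 1) from P0 to P7 in LV (blue) and RV (orange) for the 78 genes and for 9 lists of other genes, with the number of tested genes in brackets and dashed lines at the medians of all tested entries (-0.31 in the LV and -0.29 in the RV). The family lies at -0.32 and -0.44, above the cytosolic ribosomal proteins at -0.64 and -0.78 and below the respiratory chain subunits at 0.01 and -0.11.

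Across the 17 libraries most genes of the family followed its sum. The Pearson correlation of a gene with the sum of the others had a median of 0.78 and was at least 0.8 for 37 genes, with Mrpl13 highest (0.940) and Mrpl14 (0.173), Mrpl55 (0.234) and Mrpl48 (0.293) lowest. The points share the scale and the ages of the libraries, and the values are descriptive. Outside the family, the genes whose level was most like the sum were Cnih1 (r = 0.963), Cox8a (r = 0.963) and BC031181 (r = 0.953). Cox8a, a subunit of cytochrome c oxidase, went from 894 ± 103 to 477 ± 59.5 RPKM in the LV (SD, n = 3).

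The start regions were searched over 250 bases before and 50 after the start, which were at hand for 69 of the 78 genes. The ETS motif CCGGAAG, in either orientation, was present in 37.7% of these genes, in 20.5% of 8180 genes with a tested entry and in 9.93% of all 27025 genes of the sequence table. The YY1 motif AAGATGGCG was present in 11.6%, 3.77% and 1.64%, and the NRF1 motif (GCGCA, any base, then GCGC) in 18.8%, 11.8% and 5.19%. For the E-box CACGTG the shares were 7.25%, 11.6% and 8.09%, for CCAAT 39.1%, 42.5% and 41.1%, and for the estrogen-related receptor motif AAGGTCA 5.8%, 3.59% and 5.38%. Motifs were counted on both strands and may overlap, and a match is a stretch of letters and not a measured binding site. Of the 6 genes lower in both chambers under all scalings, Mrps22 and Mrps27 held the ETS motif, and Mrpl36 and Mrps27 the YY1 motif. Mrpl36 also held the E-box, CCAAT and the estrogen-related receptor motif. Mrpl47 held none of the motifs, and start regions of Mrpl19 and Mrpl38 were not at hand. The windows searched reach beyond the stretches printed above. They also held the YY1 motif for Mrps11, the ETS motif for Mrps12 and the estrogen-related receptor motif for Mrpl12.

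A neighbour on the opposite strand started within 1000 bases for 24 genes of the family, 34.8% of those with a start region, against 1110 of 8180 (13.6%) of the genes with a tested entry. Of the 23 tested neighbours, 14 were lower at P7 in the LV and 13 in the RV on the deposited scale, and 0 were higher, that is 60.9% and 56.5% lower beside 53.0% and 46.1% of all tested entries. Upper-quartile scaling gave 9 lower and 3 higher in the LV and 7 lower and 3 higher in the RV. The pair Mrps11 and Mrpl46 belongs to the family on both sides, with starts 42 bases apart. In the LV neither was called, at -0.15 for Mrps11 (adjusted p = 0.139) and -0.21 for Mrpl46 (adjusted p = 0.0885). In the RV, Mrps11 changed by -0.06 (adjusted p = 0.61), from 21.8, 21.3 and 22.1 to 21.3 and 20.3 RPKM, and Mrpl46 by -0.45 (adjusted p = 0.00377), from 28.4, 26.1 and 28.0 to 17.6 and 22.2 RPKM. The RV libraries of P0 and P7 overlapped for Mrps11 and did not for Mrpl46.

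Mrps12 starts 147 bases from Sars2, the serine synthetase of mitochondria, which changed by -0.69 in the LV (adjusted p = 0.000702) and -0.58 in the RV (adjusted p = 0.00791), against -0.11 and -0.34 for Mrps12. Mrps27 and Ptcd2, an RNA-processing protein of mitochondria, start 108 bases apart and were both lower, with Ptcd2 at -0.74 in the LV and -0.67 in the RV. Mrpl47 starts 308 bases from the complex I subunit Ndufb5, which changed by 0.00 in the LV (adjusted p = 0.985) and by -0.21 in the RV (adjusted p = 0.0695), against -0.64 and -0.86 for Mrpl47. Mrpl43 and Twnk start 116 bases apart, with changes of -0.11 and -1.06 in the LV and of -0.19 and -0.86 in the RV. Neighbours across a shared start region thus had similar values in some pairs and different ones in others, and the difference within a pair was not tested.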

How the data were processed

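Strand-specific paired-end RNA-seq libraries of total RNA from 17 neonatal ventricle samples were used as deposited by the authors, as 1 value per RefSeq messenger RNA entry. The deposited values were taken to be RPKM, a unit inferred from the values and not named in the sources. Reads were aligned with STAR 2.4.0j to mm10, per the submitters' processing notes, and the counting tool and annotation are not stated there. Entry names came from the RefSeq gene table (20379 of 20624) or GENCODE M21 (76), and 169 entries were not named. Read numbers were estimated from the steps between low values, and no test was run on them.

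Entries of at least 1 RPKM in at least 2 libraries (10668) were fitted with limma 3.58.1 in R 4.3.3 as log2(RPKM + 1), with 1 mean for each of 6 groups, a mean-variance trend and Benjamini-Hochberg adjustment over all tested entries. A gene was called at an adjusted p under 0.05. P-values measure the spread between these libraries, since the labels do not tie libraries to animals. Tables and plots were made with Python 3.11.15, numpy 2.4.6, pandas 2.3.3 and matplotlib 3.10.9, and the fit was tested on simulated data.

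The members, lists and role groups were chosen with earlier results of these data known. Genes were named by rule: the 4 highest and 4 lowest changes for P7 against P0 and the 2 highest and 2 lowest for other comparisons, the 4 highest and 4 lowest mean levels, genes called between chambers, genes with set roles, and the 2 highest and 2 lowest of each list in the LV. Other genes were named after their values were seen. LV and RV libraries of the same age and number deviated together from their group means (8 pairs, r = 0.269 to 0.587). For 16 differently numbered pairs r was -0.402 to 0.094. Deviations cancel out within a group, so these values partly follow from those of the same-numbered pairs and are not an independent contrast. The replicate numbers were used to pair the chambers in an alternative fit. Start regions are RefSeq sequences on GRCm38.p6. Alternatives were 3 scalings, pseudocount, filter, trend, summed entries, groups fitted, replicate blocks and leaving out libraries, and the fit without libraries low in NM_008710 was added after seeing the data.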

Additional observations from a re-analysis of the deposited data

How the results depend on the processing

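Of the values of single genes under the alternatives, 1328 kept their direction and side of the threshold, 91 were no longer past it, 29 newly passed it and 10 turned sign. Counts and sums stayed within 1.5 times, or within the replicate SD, in 263 cases and moved in 62. Scaling moved most of them. Lower genes under upper-quartile scaling, common total and quantile normalization were 14, 18 and 13 (LV P7 against P0), 15, 17 and 16 (RV P7 against P0), 8, 8 and 11 (LV P3 against P0), 34, 11 and 25 (RV P3 against P0), 4, 8 and 6 (LV P7 against P3) and 0, 2 and 0 (RV P7 against P3). Higher genes in the same order were 9, 7 and 10, then 1, 1 and 2, then 1, 1 and 3, then 0 throughout, then 2, 3 and 4, and 6, 1 and 5. The summed level at P7 over P0 as deposited was 0.815 for LV and 0.771 for RV, and under the scalings 1.002, 0.985 and 1.01 for LV and 0.955, 0.964 and 0.977 for RV. Changes that turned sign under those 3 scalings were RV P7 against P0 for Mrps11 (0.24, 0.26 and 0.25) and Mrps18a (0.0183, 0.0313 and 0.0522) and LV P7 against P0 for Mrpl42 (0.0749, 0.04997 and 0.0906), and under quantile normalization alone Mrpl1 in the LV (0.00386).

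Leaving out 1 library gave 40 to 49 lower genes for LV P7 against P0, 34 to 57 for RV P7 against P0, 14 to 23 for LV P3 against P0, 38 to 43 for RV P3 against P0, 10 to 19 lower and 0 to 2 higher for LV P7 against P3 and 0 to 5 for RV P7 against P3. With the 10 libraries at 1 RPKM or more of NM_008710, lower genes in that order were 25, 56, 4, 17, 0 and 0, and higher genes 0. For RV P7 against P3, 3 were lower without the filter, 2 without the trend, and 2 higher with only the compared groups fitted. Across ages the same-numbered libraries share only a number (r = -0.073 to 0.18, 16 pairs), and a replicate block gave 53, 58, 28, 60, 21 and 7 lower genes in that order and 2 higher in LV P7 against P3. The block between chambers called 1 gene at P3 and 1 over the ages and changed no other call there between the chambers. The cause of these shifts was not tested.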
